A study of Mus musculus with 6 samples.

Results

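The 10 genes described here belong to the epithelial-mesenchymal transition (EMT) and were examined in ID8 cells exposed to the chemokine CCL6. They were the transcription factor genes Zeb1, Zeb2, Snai1, Snai2, Twist1 and Twist2, the cadherin genes Cdh1 and Cdh2, the epithelial surface gene Epcam and the intermediate filament gene Vim. Members were found by the gene symbol that the platform annotation gives a probe set. Of the 10 genes, 9 had 1 probe set each among the 22206 on the array, and Zeb2 was not analysed here. ID8 is an ovarian cancer line of mouse cells kept in culture. All cultures were without serum for 24 h. The CCL6 group (3 cultures) then received 200 ng/mL of recombinant CCL6 for 6 h and the unstimulated group (3 cultures) received none. CCL6 is a macrophage chemokine that signals through CCR1, and the question behind the arrays was which pathways accompany migration toward it. The cultures are biological replicates by their labels, with 1 Clariom S array each, so that p-values measure the spread between cultures of this 1 line.

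EMT is a change of state in which epithelial cells loosen their junctions and take on a spindle shape and motility. Factors of the ZEB, Snail and Twist families bind E-box sequences in DNA and repress epithelial genes, with Cdh1 (E-cadherin) as the best known target. Cdh2 (N-cadherin) and Vim (vimentin) mark the mesenchymal state. Cells of the ovarian surface, from which ID8 was derived, are known to carry keratins together with N-cadherin and vimentin, and so show features of both states.

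In ID8 cells 6 of the 9 measured genes lay above background in both groups, namely Zeb1, Snai1, Snai2, Cdh1, Cdh2 and Vim, and Twist1, Twist2 and Epcam did not. None of the 9 passed an adjusted p under 0.05 after CCL6 with limma, a linear model with variances shared across probe sets. The differences furthest above 0 were those of Zeb1, 0.52 (SE 0.25), and Snai2, 0.50 (SE 0.25), and the one furthest below 0 was that of Cdh1, -0.76 (SE 0.53), each on the log2 scale. A gene counted as above background where its group mean exceeded 4.85 on the log2 scale. That level lay above 95% of 1452 probe sets for receptors of smell, taste and pheromones, genes that ovarian cells are not thought to use. Levels are log2 values after RMA and were not compared between probe sets, whose probes differ in brightness.

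Array medians lay between 5.42 and 5.49, and 12263 to 12520 probe sets per array were above background. The arrays did not sort by treatment along their first principal component, which held 50.8% of the variance over probe sets above background. CCL6 replicate 3 lay with unstimulated replicates 1 and 2, and unstimulated replicate 3 lay with CCL6 replicates 1 and 2. The mean deviation of 22 proliferation genes followed the same division, at 0.46, 0.88 and -0.88 in CCL6 replicates 1, 2 and 3, against -0.71, -0.56 and 0.80 in unstimulated replicates 1, 2 and 3. All 8 ovarian surface and mesothelial markers were above background in at least 1 group, Krt7 in CCL6 cells only. Their level, summed before the log, ran from 18.0 to 18.8 in CCL6 cells and from 18.3 to 18.9 in unstimulated cells. Upk3b, which read 17.3 to 18.4 over the 6 arrays, weighed most in that sum. Of markers of other cells, 0 of 8 for macrophages, 0 of 5 for endothelium and 2 of 6 for fibroblasts (Dcn and Col1a1) were above background. Every comparison follows the arrays' labels, and whether the labels of the arrays numbered 3 had been exchanged could not be told from the values. An exchange would alter each difference given here. The part of the division between arrays in the results was not tested. Results are also given without both arrays numbered 3, which were picked from these same values. The unstimulated arrays left are then those low in proliferation genes, and the CCL6 arrays left are those high in them. Treatment and the division cannot be told apart in that fit. The median difference of the proliferation genes was 1.21 in it, against 0.31 with all 6 arrays.

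Across the array 0% of probe sets passed an adjusted p under 0.05 with limma, and 0 of the 9 genes did. The methods' t-test called 1 probe set of the array after adjustment and 0 of the 9 genes, and took 3.66% of probe sets and 2 of the 9 genes (Zeb1 and Twist2) at an unadjusted p under 0.05. At an unadjusted p under 0.05 limma took 3.08% of probe sets and 0 of the 9 genes. The share was 1.28% for higher values after CCL6 and 1.81% for lower ones, and 3.12% among the probe sets that exceeded background in 1 group or both. Groups did not overlap for 8.19% of all probe sets. They did not overlap for 3 of the 9 genes. Zeb1 and Snai2 were the higher ones after CCL6, against 3.77% of all probe sets, and Twist2 was the lower one, against 4.41%. Among the 6 genes above background the groups were apart for 2, against 7.85% of probe sets above background. Of the 9 genes 4 had a difference above 0, as had 48.5% of all probe sets. With so few genes these counts are a description. The median difference of the 9 genes was -0.02, and that of all probe sets was -0.01. With 3 arrays against 3, an exact permutation test of a single gene (two-sided) cannot go below 0.1, which it reached for Zeb1, Snai2 and Twist2.

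**Figure D1:**
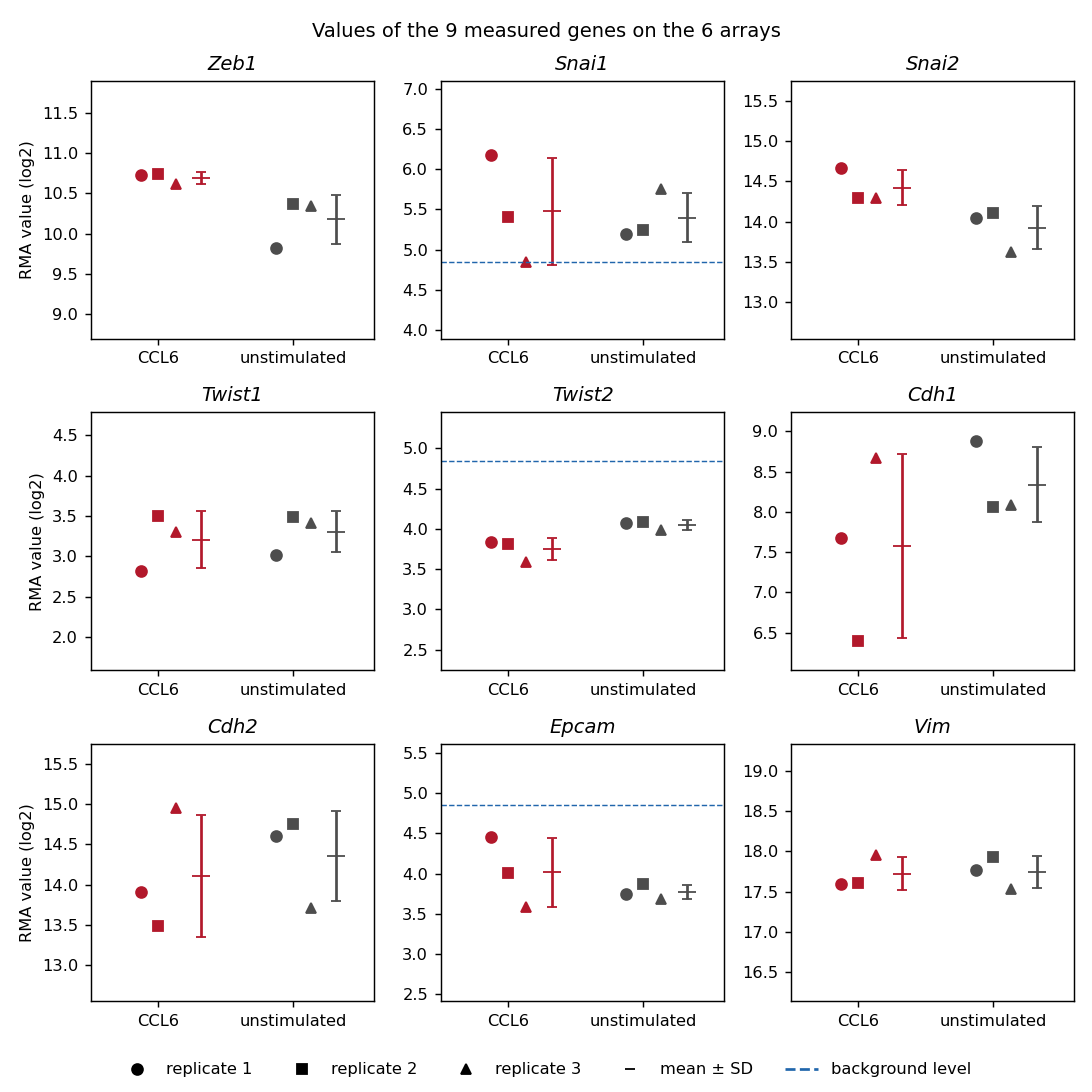
RMA values (log2) of the 9 measured genes on each array, CCL6 cultures in red and unstimulated cultures in grey, with the mean and SD beside the points and the background level of 4.85 as a dashed line where it falls in the panel. Every panel spans the same number of log2 units, and the 3 arrays of each group separate without overlap for Zeb1, Snai2 and Twist2 only.

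Zeb1 encodes a zinc finger and homeodomain repressor of Cdh1. It read 10.73, 10.74 and 10.61 in CCL6 replicates 1, 2 and 3, against 9.82, 10.37 and 10.34 in unstimulated replicates 1, 2 and 3. Every CCL6 array lay above every unstimulated array, and unstimulated replicate 1 was the lowest of the 6. The means were 10.69 ± 0.07 (SD, n = 3) in CCL6 cells and 10.18 ± 0.31 (SD, n = 3) in unstimulated cells, a 1.43-fold difference. Its 95% interval ran from 1.03-fold lower to 2.11-fold higher (limma, unadjusted p = 0.0676, adjusted p = 0.999). Without unstimulated replicate 1 the log2 difference of Zeb1 was 0.34 in place of 0.52. That array alone set the low end of its group.

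Snai2 encodes Slug, a Snail family repressor with a role in neural crest and mammary epithelium. It read 14.67, 14.29 and 14.29 in CCL6 replicates 1, 2 and 3, against 14.04, 14.11 and 13.62 in unstimulated replicates 1, 2 and 3. The groups did not overlap, with CCL6 replicates 2 and 3 only a little above the highest unstimulated array. The means were 14.42 ± 0.22 (SD, n = 3) in CCL6 cells and 13.92 ± 0.27 (SD, n = 3) in unstimulated cells, a 1.41-fold difference. The interval ran from 1.06-fold lower to 2.10-fold higher (limma, unadjusted p = 0.0829, adjusted p = 0.999). The unadjusted p of Snai2 was 0.0485 in a fit with an intensity trend and robust variances, where the adjusted p was 0.998. That was the lowest among the alternatives. In the others it ran from 0.0671 (the methods' t-test) to 0.231 (limma, without unstimulated replicate 3). The log2 difference was 0.34 without that array.

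Snai1 encodes Snail, the founding repressor of its family, whose transcript and protein are both known to turn over fast. It read 6.18, 5.41 and 4.85 in CCL6 replicates 1, 2 and 3, against 5.20, 5.25 and 5.75 in unstimulated replicates 1, 2 and 3. The CCL6 arrays held both the highest and the lowest value. CCL6 replicate 3 lay at the background level, and CCL6 replicate 1 and unstimulated replicate 3 lay furthest above it. The mean of Snai1 lay above 98.8% of the receptor probe sets. With the background set at their 99th percentile, 5.49, Snai1 was no longer above it by its group means. The means were 5.48 ± 0.66 (SD, n = 3) in CCL6 cells and 5.40 ± 0.30 (SD, n = 3) in unstimulated cells. The log2 difference of 0.08 (SE 0.36) had a 95% interval from -0.73 to 0.89, and it was -0.27 without CCL6 replicate 1. Treated cells were measured at 6 h only, so an earlier and passing change was not measured.

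Twist1 and Twist2 encode closely related basic helix-loop-helix factors. Neither was above background on any of the 6 arrays. Twist1 read 2.82, 3.51 and 3.30 in CCL6 replicates 1, 2 and 3, against 3.02, 3.48 and 3.42 in unstimulated replicates 1, 2 and 3, and its mean lay above 20.0% of the receptor probe sets. Twist2 read 3.83, 3.81 and 3.59 in CCL6 replicates 1, 2 and 3, against 4.08, 4.08 and 3.98 in unstimulated replicates 1, 2 and 3, and its mean lay above 63.4% of them. All CCL6 values of Twist2 lay below all unstimulated ones, but at readings where no fold is given (limma, unadjusted p = 0.207, adjusted p = 0.999). Low transcript amounts could still be present below the background level. The methods' t-test, which estimates each spread from that gene alone, gave Zeb1 an unadjusted p of 0.0470 and Twist2 one of 0.0242, with an adjusted p of 0.998 for both.

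Cdh1 encodes E-cadherin, the adhesion molecule of epithelial adherens junctions. It read 7.67, 6.39 and 8.67 in CCL6 replicates 1, 2 and 3, against 8.88, 8.06 and 8.08 in unstimulated replicates 1, 2 and 3. The groups overlapped, since CCL6 replicate 3 was the second highest array, and CCL6 replicate 2 was far below the rest. The means were 7.58 ± 1.14 (SD, n = 3) in CCL6 cells and 8.34 ± 0.47 (SD, n = 3) in unstimulated cells, a 1.69-fold difference downward. The interval ran from 3.90-fold lower to 1.36-fold higher (limma, unadjusted p = 0.185, adjusted p = 0.999). Its residual SD of 0.87 exceeded the median of 0.36 over all probe sets. Without CCL6 replicate 2 the log2 difference of Cdh1 was -0.17, and without CCL6 replicate 3 it was -1.31 (unadjusted p = 0.0190, adjusted p = 0.956). Single arrays of the treated group thus set the size of the Cdh1 value.

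Epcam encodes an adhesion molecule of simple epithelia that is widely used to detect carcinoma cells. It read 4.45, 4.01 and 3.58 in CCL6 replicates 1, 2 and 3, against 3.75, 3.87 and 3.69 in unstimulated replicates 1, 2 and 3. It was not above background on any array, and its mean lay above 63.2% of the receptor probe sets. The SD was 0.43 in CCL6 cells and 0.09 in unstimulated cells (n = 3 each), and the groups overlapped (limma, unadjusted p = 0.397, adjusted p = 0.999).

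Promoters of members were read from RefSeq on GRCm38.p6, from 250 bases before to 50 bases after the start site. They were searched for the E-box CACCTG, or its reverse complement CAGGTG, on both strands. Snail and ZEB factors are known to bind such boxes. Promoters of 6 of the 10 genes were read, and those of Zeb1, Snai2, Cdh1 and Cdh2 were not. The promoters of Epcam, Snai1 and Vim are shown, chosen because they differ in these boxes, which stand in capitals. The Epcam promoter lies at chr17:87635729-87636028 (+), that of Snai1 at chr2:167537945-167538244 (+) and that of Vim at chr2:13574061-13574360 (+).
Epcam: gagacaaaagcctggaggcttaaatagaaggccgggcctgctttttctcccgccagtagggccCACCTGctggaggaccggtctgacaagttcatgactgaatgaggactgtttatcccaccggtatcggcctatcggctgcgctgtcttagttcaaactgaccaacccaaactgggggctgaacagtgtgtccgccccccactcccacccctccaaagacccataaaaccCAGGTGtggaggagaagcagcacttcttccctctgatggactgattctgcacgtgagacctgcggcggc
Snai1: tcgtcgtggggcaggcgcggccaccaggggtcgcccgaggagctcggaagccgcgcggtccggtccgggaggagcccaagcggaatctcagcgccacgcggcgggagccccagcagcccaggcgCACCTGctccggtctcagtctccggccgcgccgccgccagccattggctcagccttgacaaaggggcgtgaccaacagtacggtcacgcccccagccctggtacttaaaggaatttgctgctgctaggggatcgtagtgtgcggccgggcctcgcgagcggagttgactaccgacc
Vim: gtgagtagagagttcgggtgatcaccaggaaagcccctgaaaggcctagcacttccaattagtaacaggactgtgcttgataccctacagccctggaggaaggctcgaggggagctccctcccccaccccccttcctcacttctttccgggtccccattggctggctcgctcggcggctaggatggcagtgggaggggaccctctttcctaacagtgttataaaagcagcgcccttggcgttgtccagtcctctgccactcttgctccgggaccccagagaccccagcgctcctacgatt
The Epcam promoter held 2 boxes, beginning at -187 and -19 from the start site, and the Snai1 promoter held 1 at -126. The promoters of Vim, Twist1 and Twist2 and the 4 promoters of Zeb2 held 0. Epcam, with 2 boxes, and Twist1 and Twist2, with 0, were below background. Snai1, with 1 box, and Vim, with 0, were above it. Zeb1, Snai2, Cdh1 and Cdh2, whose promoters were not read, were all above background, so no relation of boxes to level is drawn. Among 32851 promoters of this length in the table, 20.2% held at least 1 such box and 2.88% held 2 or more. A match of letters is a description and not a bound site.

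Cdh2 encodes N-cadherin, which joins mesenchymal and neural cells and also ovarian surface cells. It read 13.90, 13.48 and 14.95 in CCL6 replicates 1, 2 and 3, against 14.60, 14.76 and 13.71 in unstimulated replicates 1, 2 and 3. The highest array was CCL6 replicate 3, next to unstimulated replicates 1 and 2, and the other 3 arrays were all lower, which is the division seen in the proliferation genes. The means were 14.11 ± 0.76 (SD, n = 3) in CCL6 cells and 14.36 ± 0.56 (SD, n = 3) in unstimulated cells. The difference was 1.19-fold downward, with an interval from 2.32-fold lower to 1.65-fold higher (limma, unadjusted p = 0.581, adjusted p = 0.999). Without both arrays numbered 3 the log2 difference of Cdh2 was -0.99 (SE 0.29, limma, unadjusted p = 0.0120, adjusted p = 0.280). Treatment coincides with the division in that fit, so this value and its p cannot be assigned to CCL6. Sets of arrays for a block were taken from the first principal component of these same values, Cdh2 included. With that block the difference of Cdh2 was 0.13 (SE 0.24), and this SE is a description only. The sign of the Cdh2 difference therefore depended on how these arrays were handled.

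Vim encodes vimentin, the intermediate filament protein of mesenchymal cells. It read 17.60, 17.61 and 17.96 in CCL6 replicates 1, 2 and 3, against 17.77, 17.93 and 17.54 in unstimulated replicates 1, 2 and 3. These readings lay near the top of the range of the array, which ended at 19.2. The means were 17.72 ± 0.20 (SD, n = 3) in CCL6 cells and 17.75 ± 0.20 (SD, n = 3) in unstimulated cells, and the groups overlapped. The log2 difference was -0.02 (SE 0.24, limma, unadjusted p = 0.933, adjusted p = 0.999), with the opposite sign after median centring. Its interval ran from 1.48-fold lower to 1.44-fold higher. Each array measured a whole culture, so that fewer cells with a transcript and less transcript per cell cannot be told apart for Vim or any other gene here.

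**Figure D2:**
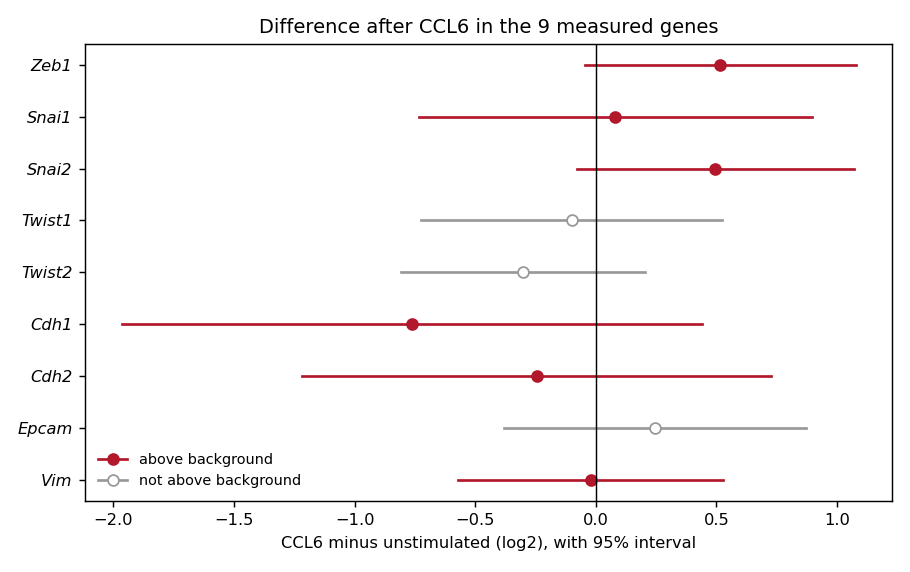
Difference of the 9 measured genes after CCL6 (CCL6 minus unstimulated, log2) with its 95% interval from limma, filled red where the gene was above background and open grey where it was not. All 9 intervals include 0, and that of Cdh1 is the widest, from -1.96 to 0.44.

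Among the 6 genes above background, the arrays with low readings of proliferation genes (unstimulated replicates 1 and 2 and CCL6 replicate 3) held the 3 highest values of Cdh2 and of Vim. They held the 3 lowest values of Snai1. For Cdh1 they held the 2 highest values, with unstimulated replicate 2 marginally below unstimulated replicate 3. Zeb1 and Snai2 did not follow the division, and in both genes CCL6 replicate 3 stood above all unstimulated arrays. The division is that of the first principal component, which held 50.8% of the variance over probe sets above background. How many of all probe sets divide this way was not counted, so following it is not given as a trait of these genes. Without both arrays numbered 3 the log2 differences were 0.64 for Zeb1, 0.41 for Snai2, 0.57 for Snai1, -1.43 for Cdh1, -0.99 for Cdh2 and -0.24 for Vim. Treatment coincides with the division in that fit, so these values cannot be told apart from it. With the block for the sets of arrays the log2 differences were 0.45 for Zeb1, 0.54 for Snai2, -0.16 for Snai1, -0.42 for Cdh1, 0.13 for Cdh2 and 0.09 for Vim. None of the 9 genes passed an adjusted p under 0.05 in either fit, where the smallest was 0.280 for Cdh2. The part of proliferation in these values was not tested.

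**Figure D3:**
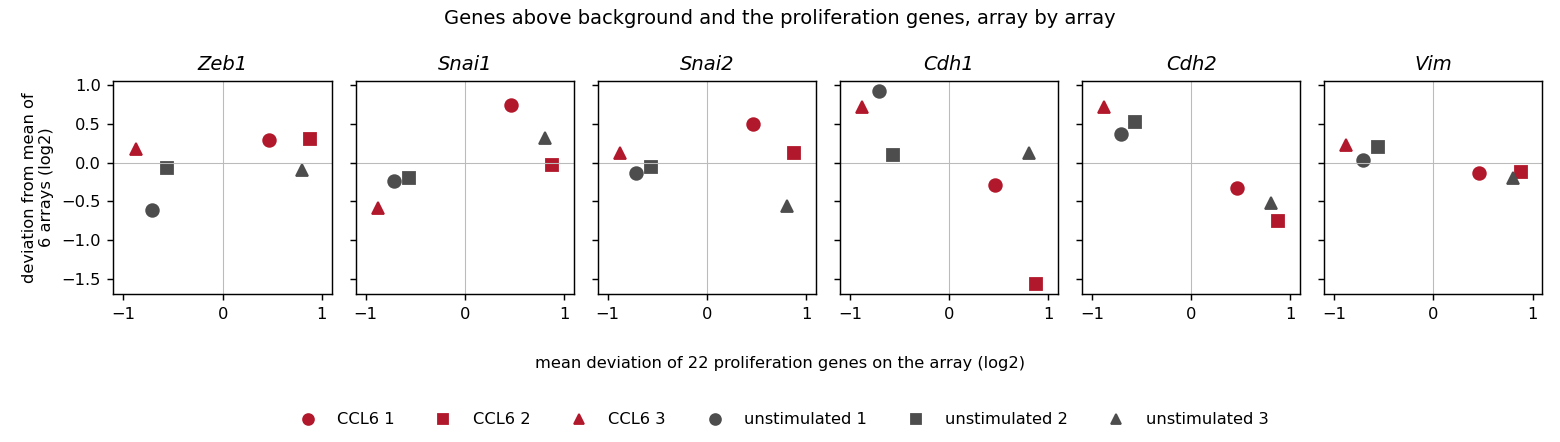
Deviation of each gene above background from its mean over the 6 arrays (log2, vertical axis) against the mean deviation of 22 proliferation genes on the same array (log2, horizontal axis), with CCL6 arrays in red and unstimulated arrays in grey. The arrays fall into sets at the left and right of every panel, each with arrays of both groups, and the left set is the higher one for Cdh2 and Vim and the lower one for Snai1.

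Partners of the EMT factors were covered by a list of other EMT factors and cofactors, of whose 20 genes 19 were measured and 13 lay above background. Adjusted p was under 0.05 for 0 of them, and 11 were higher and 8 lower, with a median difference of 0.11. Tcf3 (E2A) and Tcf4, E proteins that pair with Twist factors, read 9.39 ± 0.23 and 12.11 ± 0.50 in CCL6 cells (SD, n = 3 each) and 9.20 ± 0.46 and 11.68 ± 0.35 in unstimulated cells (SD, n = 3 each). Their log2 differences were 0.20 (SE 0.29) and 0.43 (SE 0.32), with overlapping groups. Snai3, another Snail family gene, and Prrx1, a homeobox factor of mesenchyme, stayed under background in both groups, with Snai3 at 4.51 ± 0.16 in CCL6 cells and 4.81 ± 0.04 in unstimulated cells (SD, n = 3 each). The 1 gene of this list with an unadjusted p under 0.05 was Id3, an inhibitor of E proteins, chosen for mention once its values were known. Id3 read 7.92, 8.05 and 7.93 in CCL6 replicates 1, 2 and 3, against 9.06, 8.74 and 8.24 in unstimulated replicates 1, 2 and 3, without overlap. Its log2 difference was -0.72 (SE 0.27, limma, unadjusted p = 0.0274, adjusted p = 0.999). The share of all probe sets with a lower value at an unadjusted p under 0.05 was 1.81%.

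Factors that hold cells in the epithelial state were mostly not above background. Of 10 measured genes 3 were above it in at least 1 group, namely Grhl1, Esrp2 and, in unstimulated cells only, Grhl3. Grhl2, an activator of Cdh1, read 3.21 ± 0.23 in CCL6 cells and 3.07 ± 0.39 in unstimulated cells (SD, n = 3 each). Ovol2, a repressor of Zeb1, was at 3.70 ± 0.24 in CCL6 cells and 3.63 ± 0.18 in unstimulated cells (SD, n = 3 each). The paralogous splicing factor genes of epithelia read differently against background. Esrp1 was at 3.22 ± 0.47 in CCL6 cells and 3.17 ± 0.18 in unstimulated cells (SD, n = 3 each), below it, and Esrp2 was at 11.88 ± 0.60 in CCL6 cells and 11.54 ± 0.33 in unstimulated cells (SD, n = 3 each), above it. The log2 difference of Esrp2 was 0.33 (SE 0.34). Of the 10 genes 0 passed an adjusted p under 0.05, and the median difference was 0.02. Elf3, an epithelial ETS factor also chosen with its values known, had the only unadjusted p under 0.05 in this list (0.0425, lower after CCL6, as were 1.81% of all probe sets at that p), with group means that were not above background.

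Of 30 measured epithelial junction and surface genes 21 lay above background in at least 1 group. In the whole list 15 were higher and 15 lower, and 0 passed an adjusted or unadjusted p under 0.05. The median difference was -0.03. Cdh3 (P-cadherin) read 12.35 ± 0.35 in CCL6 cells and 12.22 ± 0.20 in unstimulated cells (SD, n = 3 each), a log2 difference of 0.13 (SE 0.27). Ctnnd1 (p120-catenin), which stabilises cadherins at the membrane, differed by 0.20 (SE 0.27), and Ctnnb1 was not analysed here. The simple epithelial keratin gene Krt8 read 13.19 ± 0.34 in CCL6 cells and 13.25 ± 0.45 in unstimulated cells (SD, n = 3 each). Its partner Krt18 read 14.64, 14.30 and 14.57 in CCL6 replicates 1, 2 and 3, against 14.78, 14.77 and 14.73 in unstimulated replicates 1, 2 and 3, without overlap (log2 difference -0.26, SE 0.23, unadjusted p = 0.281). The tight junction gene Ocln was not above background, at 3.64 ± 0.67 in CCL6 cells and 3.53 ± 0.41 in unstimulated cells (SD, n = 3 each).

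Of 25 measured mesenchymal genes 18 lay above background in at least 1 group. In the whole list 11 were higher and 14 lower, and 0 passed an adjusted p under 0.05. The median difference was -0.09. Fn1 (fibronectin), a matrix protein, read 15.41 ± 0.11 in CCL6 cells and 15.35 ± 0.13 in unstimulated cells (SD, n = 3 each), with a log2 difference of 0.05 (SE 0.22). Cdh11, a cadherin of mesenchyme, read 3.85, 6.08 and 6.67 in CCL6 replicates 1, 2 and 3, against 4.72, 6.33 and 5.90 in unstimulated replicates 1, 2 and 3. Replicate 1 was the lowest and not above background in both groups, and the log2 difference of Cdh11 was -0.12 (SE 0.70). The only gene of this list at an unadjusted p under 0.05 was Fap (0.0384), a surface protease of activated fibroblasts also chosen with its values known, and its group means were not above background. It was lower after CCL6, as were 1.81% of all probe sets at that p.

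**Figure D4:**
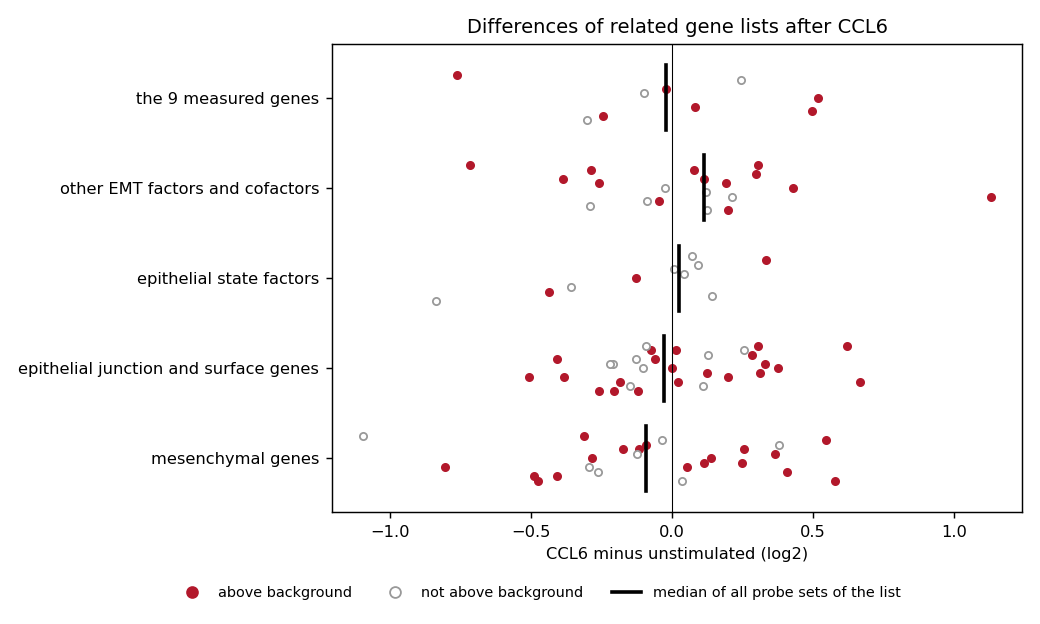
Difference after CCL6 (CCL6 minus unstimulated, log2) of each probe set of the 9 measured genes and of the related gene lists, filled red where it was above background in at least 1 group and open grey where it was not, with the median of each list as a black bar. All list medians lie between -0.09 and 0.11.

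For the 4 genes above background whose values spanned over 1 on the log2 scale, the 3 named probe sets with the closest pattern over the 6 arrays were found by the root mean square difference after each mean was subtracted. Snai1 (span 1.32) was nearest to Rabepk, Mto1 and Metrn, at 0.03 to 0.09. Snai2 (span 1.05) was nearest to Gys2, Plekhg1 and Prxl2c, at 0.06 to 0.08. Cdh2 (span 1.47) was nearest to 4930481A15Rik, Nabp2 and Pgap1, at 0.07 to 0.08. Cdh1 (span 2.49) was nearest to Cmbl, Tpmt and Ccdc159, at 0.23 to 0.26. The measure is not scaled by span, so these distances are not compared between genes of different span. With 6 arrays and this many probe sets close patterns are common, and these names are a description only.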

How the data were processed

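Total RNA of 6 cultures was hybridised to 1 Clariom S mouse array each. The authors deposited log2 values from RMA, a method that subtracts background, quantile-normalizes the arrays and reduces the probes of a set to 1 value. Software version and genome build are not given in the sources used here. That the log is to base 2 was inferred from the range, 1.93 to 19.2. Of 22206 probe sets, 19572 had 1 gene symbol in the platform annotation, 0 had several and 2634 (11.9%) were unnamed here. Groups and replicate numbers were taken from the sample titles, and no array was left out.

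The 6 arrays entered a single model (lmFit, then eBayes) of CCL6 minus unstimulated in limma 3.58.1 under R 4.3.3. Tests were two-sided, p-values were adjusted by Benjamini-Hochberg across the 22206 probe sets, and calls were made at 0.05. No test is stated for the arrays in the study's methods, and their general t-test was run as an alternative. The script was tested on simulated data. The members and gene lists were chosen with earlier results of these data known. All measured members were named, with 16 genes of the other lists by role, any list gene at an adjusted p under 0.05, and the 3 nearest patterns. Genes named outside this rule, including the few that a small count refers to (Dcn, Col1a1, Grhl1 and Grhl3), were chosen after their values were seen. Of the listed genes 12 had no probe set named here. Alternatives were 3 normalizations, a filter on dim probe sets, a trended robust variance, a replicate block, array weights, other background percentiles and the omission of each array. After the data were seen, 2 more were added, namely blocking on the array sets and dropping both arrays numbered 3. The array sets were taken from the first principal component of these same values. SEs, p-values and counts with that block are therefore a description only. The number of arrays limits the precision.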

Additional observations from a re-analysis of the deposited data

How the results depend on the processing

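No member passed an adjusted p under 0.05 under any alternative that was run. The smallest adjusted p was 0.280 (limma, Cdh2, without both arrays numbered 3, where treatment coincides with the division between arrays). The signs of Zeb1, Snai2 and Cdh1 held in all alternatives, and those of Twist2 and Epcam in all but the restriction to probe sets above background, which left both genes out. The difference of Vim was 0.000428 after median centring, and with the array set block those of Snai1, Cdh2 and Vim were -0.16, 0.13 and 0.090. With each array left out in turn the log2 difference ran from -0.27 to 0.39 for Snai1, -0.25 to 0.095 for Twist1, -0.66 to 0.070 for Cdh2 and -0.14 to 0.073 for Vim. It ran from 0.34 to 0.61 for Zeb1, 0.34 to 0.59 for Snai2 and -1.31 to -0.17 for Cdh1. The median of the junction and surface genes ran from -0.10 to 0.056, and that of the proliferation genes was 1.21 without both arrays numbered 3. The members at an unadjusted p under 0.05 numbered 0 with limma, 1 with the trended robust variance (Snai2), 2 with the methods' t-test (Zeb1 and Twist2), 0 to 1 with each array left out (Cdh1, when CCL6 replicate 3 was omitted) and 2 with both arrays numbered 3 dropped (Cdh1 and Cdh2). Over the whole array 685 probe sets had an unadjusted p under 0.05. This count was 662 with the trended robust variance, 812 with the methods' t-test, 344 above background only, where fewer probe sets were tested, 428 to 1005 with each array left out, 1365 with the array set block and 2491 without both arrays numbered 3. The methods' t-test called 1 probe set after adjustment, where limma called 0. At the 99th percentile background 5 members were above it in place of 6. Where the cause of a change is not stated, it was not tested.

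With the replicate number as a block, 474 probe sets and 0 members had an unadjusted p under 0.05 and 0 probe sets passed an adjusted p. Deviations of same-numbered arrays correlated at -0.08, -0.23 and -0.66 over probe sets above background, and CCL6 arrays correlated best with an array of another number. The arrays numbered 3 lay apart from the rest of their groups, in opposite directions, along the first principal component, which enters these correlations. Whether same-numbered cultures were handled together therefore cannot be told from them.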

Other observations

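Outside the 9 measured genes, the list genes with the widest span over the 6 arrays were Sox9 (4.36 on the log2 scale) and Cldn3 (3.71), both named here after their values were seen. Cldn3, a tight junction claudin of epithelia, read 7.45, 8.54 and 4.84 in CCL6 replicates 1, 2 and 3, against 5.16, 5.18 and 8.50 in unstimulated replicates 1, 2 and 3. CCL6 replicate 3 and unstimulated replicates 1 and 2 were thus close to the background level of 4.85, and the other 3 arrays were far above it. Sox9, a transcription factor of progenitor cells and cartilage, read 11.04, 12.60 and 8.51 in CCL6 replicates 1, 2 and 3, against 8.50, 8.24 and 12.02 in unstimulated replicates 1, 2 and 3. Its low and high arrays were the same as for Cldn3. Cdh2 was high on the arrays where Cldn3 and Sox9 were low. Other wide-ranging genes outside the proliferation list did not all share this division. Acta2 (smooth muscle actin), also named with its values known, read 10.38, 9.12 and 7.91 in CCL6 replicates 1, 2 and 3, against 9.22, 9.91 and 10.68 in unstimulated replicates 1, 2 and 3, and Cdh11 was lowest in replicate 1 of both groups. The log2 differences between treatments were 0.67 (SE 1.08) for Cldn3 and 1.13 (SE 1.18) for Sox9, and neither passed an adjusted p under 0.05 with limma.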
